A study of Homo sapiens with 27 samples.

Results

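This account compares the insertion sites of piggyBat with those of piggyBac on a short transposon, in the 6 libraries (of 27) that carry those labels, 3 per group. Both groups used HCT116, a colorectal carcinoma line long established in culture, given a self-reporting transposon and its transposase and then grown for 2 weeks in puromycin at 3 µg/ml. The piggyBat group (WT_PBat in the plots) combined a wild-type transposon with piggyBat. The other group (short_PB) combined a short transposon with wild-type piggyBac. The labels do not say what was removed from the short transposon, whether replicates came from separate cultures, or what transposase dose was used. Transposase, transposon ends and the amplification primers all differed between the groups, so their parts in any difference below cannot be told apart. The files list insertion sites and not RNA levels, so the cell line was not checked against markers.

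A transposase binds the ends of its transposon, cuts the transposon out and joins it to DNA elsewhere. The piggyBac system comes from the cabbage looper moth and piggyBat from the little brown bat, and both insert at the bases TTAA, which are duplicated on insertion. A self-reporting transposon transcribes through its own end into the flanking DNA, so that RNA read from that end gives the position and the orientation of the insertion. Puromycin selection keeps cells in which the resistance gene carried by the transposon is expressed.

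The piggyBat libraries listed 7182, 6902 and 8873 distinct insertion sites, and the short-transposon piggyBac libraries listed 9196, 9027 and 9212. File totals, taken as reads although nothing states so, were 147599, 142666 and 179740 for piggyBat and 183125, 179014 and 210694 for piggyBac. On the log2 scale the number of sites was 12.89 ± 0.19 (SD, n = 3) for piggyBat and 13.16 ± 0.02 (n = 3) for piggyBac, a difference of -0.27. The piggyBat libraries were all below the piggyBac libraries (two-sided exact permutation test, p = 0.1, adjusted p = 0.15 over the 12 measures tested). With 3 libraries against 3, p = 0.1 is the smallest value that an exact permutation test can give, so no measure of this kind could pass a threshold of 0.05. The difference in site number turned to 0.18 when peak heights were thinned to the smallest file total and to 0.06 over peaks with a height of at least 10. Sites per 1000000 of the file total were 48801 ± 509 for piggyBat and 48122 ± 3812 for piggyBac, and the libraries of the groups overlapped (exact permutation p = 1). That difference of 679 was 3322 over peaks with a height of at least 10 and 3610 over positions listed in no other group, without overlap in either (exact permutation p = 0.1), and 5360 with thinned heights (exact permutation p = 0.2).

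The piggyBat libraries were not equally far from each other. Replicates 1 and 3 shared 3772 positions, 52.5% of the sites of replicate 1 and 42.5% of those of replicate 3, and 97.4% of the shared positions had the same strand. Replicates 1 and 2 shared 663 positions and replicates 2 and 3 shared 759, with 83.4% and 83.5% on the same strand. The 3 pairs of piggyBac libraries shared 685, 774 and 789 positions, between 7.45% and 8.74% of either library. Among sites with a peak height of at least 20, 95.9% of those in piggyBat replicate 1 were listed in replicate 3 and 90.4% the other way, against 17.2% to 25.5% in every other within-group pair. Replicates 1 and 3 thus stood apart as a linked pair, and p-values that treat them as separate measure less spread than 3 unlinked libraries would. Results are therefore also given with these libraries averaged to 1 value, or with each left out, wherever that changed a call. Between the groups, a piggyBat library shared 4.01% to 5.19% of its positions with a piggyBac library of the short transposon, and 70.3% to 79.8% of those had the same strand. Most positions of both groups were also listed in at least 1 library of another group of the series, 74.3% to 74.9% for piggyBat and 81.1% to 82.7% for short-transposon piggyBac. The 4 deepest groups, with file totals of 8118085 to 12051190, are among these. Whether such positions are repeated use of one target or reads carried between libraries was not tested, and results are also given over the positions listed in no other group. That restriction does not treat the groups alike. Short-transposon piggyBac positions are set against other groups that used forms of piggyBac, and no other group used piggyBat.

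Both groups were set on TTAA. Of the sites that fell within the RefSeq stretches of 250 bases before to 50 bases from a gene start (GRCh38.p14), 85 of 86, 79 of 82 and 96 of 99 lay on TTAA in the piggyBat libraries, and 128 of 128, 122 of 122 and 140 of 144 in the piggyBac libraries. The lowest of these shares was 96.3% (95% exact Clopper-Pearson interval 89.7% to 99.2%). TTAA reads the same on both strands, and 46.1% of all 34961 such stretches hold it at least once. The 40 bases around the TTAA sites were 51.5% to 53.1% G or C in the piggyBat libraries and 54.7% to 56.01% in the piggyBac libraries, over 68 to 119 sites each. Over all TTAA of these stretches with such flanks the share was 42.3%, below both groups. Sites in these stretches are those closest to a gene start, and the comparison does not extend to sites elsewhere.

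Of 191 stretches with a piggyBat site, 17 held a site in all 3 piggyBat libraries. Of 349 with a piggyBac site, 19 held a site in all 3 piggyBac libraries. None held a site in all 6. The linked pair of replicates 1 and 3 adds to the piggyBat number, and overlapping stretches were counted separately. The following stretches show the 250 bases before the start of 4 genes used in every piggyBat library, with each used TTAA in capitals, 5′ to 3′ on the strand of the gene.
ACTR1A, minus strand, chr10:102502713-102502962: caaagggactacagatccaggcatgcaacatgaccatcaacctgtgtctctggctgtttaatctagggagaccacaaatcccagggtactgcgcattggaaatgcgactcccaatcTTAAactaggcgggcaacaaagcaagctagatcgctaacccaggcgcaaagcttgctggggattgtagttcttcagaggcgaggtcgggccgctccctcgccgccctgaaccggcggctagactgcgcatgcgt
RBM27, plus strand, chr5:146203355-146203604: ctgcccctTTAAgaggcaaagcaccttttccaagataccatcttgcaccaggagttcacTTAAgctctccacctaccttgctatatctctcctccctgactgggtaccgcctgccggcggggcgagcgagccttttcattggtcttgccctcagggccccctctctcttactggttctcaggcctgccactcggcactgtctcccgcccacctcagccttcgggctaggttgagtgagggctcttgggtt
ZNF638, plus strand, chr2:71331532-71331781: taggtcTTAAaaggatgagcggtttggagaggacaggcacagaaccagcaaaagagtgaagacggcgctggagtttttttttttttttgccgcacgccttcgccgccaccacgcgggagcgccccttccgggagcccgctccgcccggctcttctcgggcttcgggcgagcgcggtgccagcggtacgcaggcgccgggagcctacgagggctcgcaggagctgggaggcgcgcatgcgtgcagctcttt
YDJC, minus strand, chr22:21630023-21630272: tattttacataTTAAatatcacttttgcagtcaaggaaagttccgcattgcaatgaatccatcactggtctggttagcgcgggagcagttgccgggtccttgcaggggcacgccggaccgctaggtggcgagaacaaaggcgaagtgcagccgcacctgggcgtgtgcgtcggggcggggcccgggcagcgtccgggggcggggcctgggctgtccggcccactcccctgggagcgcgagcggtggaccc
The next stretches precede 2 genes used in every piggyBac library and were chosen after their values were seen.
RNF43, minus strand, chr17:58417535-58417784: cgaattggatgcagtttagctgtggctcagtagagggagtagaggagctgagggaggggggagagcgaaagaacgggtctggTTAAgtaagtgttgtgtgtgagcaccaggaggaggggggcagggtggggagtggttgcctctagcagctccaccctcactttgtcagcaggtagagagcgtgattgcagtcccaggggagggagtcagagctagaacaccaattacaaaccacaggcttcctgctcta
COLGALT1, plus strand, chr19:17555399-17555648: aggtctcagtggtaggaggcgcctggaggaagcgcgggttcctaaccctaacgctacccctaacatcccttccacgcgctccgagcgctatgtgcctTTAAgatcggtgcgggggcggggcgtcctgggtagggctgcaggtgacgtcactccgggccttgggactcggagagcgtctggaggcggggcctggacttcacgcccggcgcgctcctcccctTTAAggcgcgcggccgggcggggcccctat
Distances below count from the first T of the TTAA to the start of the gene. The only used TTAA before ACTR1A, which encodes a subunit of the dynactin complex, lay 134 bases before the start and was used by both systems, with heights of 16, 14 and 48 in the piggyBat libraries and 17 and 5 in 2 of the piggyBac libraries. The stretch before RBM27, which is also that of the readthrough gene RBM27-POU4F3, was used at different TTAA by the different systems. The TTAA 191 bases before the start had heights of 46, 39 and 51 for piggyBat and was not listed for piggyBac. The TTAA 242 bases before the start had a height of 7 in piggyBac replicate 1 and was not listed for piggyBat. The single TTAA before ZNF638, 244 bases before its start, was listed in the piggyBat libraries alone, with heights of 32, 28 and 36. The single TTAA before YDJC, 239 bases before its start, had heights of 9, 9 and 26 in the piggyBat libraries and was not listed for piggyBac. Before RNF43, which encodes a ubiquitin ligase that lowers Wnt receptors at the cell surface, the TTAA at 168 bases had heights of 7, 13 and 21 in the piggyBac libraries and 23 and 33 in piggyBat replicates 1 and 3. Before COLGALT1, which encodes a collagen galactosyltransferase, the TTAA at 153 bases was listed in all 3 piggyBac libraries with heights of 8, 14 and 7, and in piggyBat replicate 3 with a height of 14. The TTAA 30 bases before the COLGALT1 start was used by piggyBat, with heights of 34 and 11 in replicates 1 and 3, and was not listed for piggyBac. A site not listed had no peak of the lowest listed height, which was 5 in each of the 6 libraries. These choices of TTAA are descriptions of single positions.

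PiggyBat sites lay in protein-coding genes more often than piggyBac sites. The share of sites inside a protein-coding gene was 62.6%, 62.0% and 62.8% in the piggyBat libraries and 49.7%, 49.5% and 48.0% in the piggyBac libraries. The group means were 62.5% ± 0.39 and 49.1% ± 0.91 (SD, n = 3 each), a difference of 13.4 percentage points, and no piggyBat library reached down to a piggyBac library (exact permutation p = 0.1, adjusted p = 0.15). Counting genes of every kind, the shares were 72.6% ± 0.66 and 62.4% ± 0.55, a difference of 10.2 points with the same p. Sites in noncoding genes alone ran the other way, at 9.79% to 10.4% for piggyBat and 12.8% to 13.9% for piggyBac. Sites in no gene and over 100 kb from a protein-coding gene were 1.96% to 2.30% of piggyBat sites and 5.45% to 5.82% of piggyBac sites. The table used here gives gene bounds, so exons and introns were not separated. Over the positions listed in no other group, 1771 to 2272 per piggyBat library and 1593 to 1736 per piggyBac library, the coding shares were 65.8% to 68.8% and 51.3% to 54.6%, still with no overlap.

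**Figure D1:**
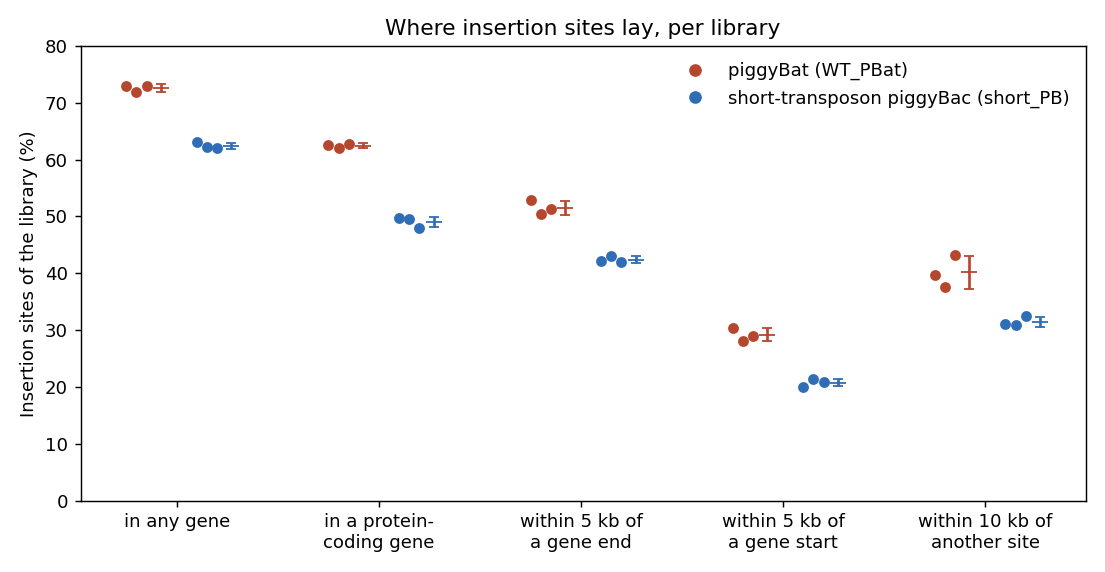
Share of each library's insertion sites (percent, y axis) that lay in the class named on the x axis, as points per library with the mean ± SD (n = 3) to their right, for piggyBat and short-transposon piggyBac. In all 5 classes the 3 piggyBat points lie above the 3 piggyBac points, for example 62.0% to 62.8% against 48.0% to 49.7% inside protein-coding genes.

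PiggyBat sites were also nearer to gene ends. The median distance from a site to the nearest end of a protein-coding gene was 9193, 10774 and 9921 bases in the piggyBat libraries and 19310.5, 19192 and 19042 bases in the piggyBac libraries. As log10 of bases this was 3.998 ± 0.03 against 4.28 ± 0.003 (exact permutation p = 0.1, adjusted p = 0.15). Within 5 kb of either end of any gene lay 51.6% ± 1.23 of piggyBat sites and 42.4% ± 0.62 of piggyBac sites, a difference of 9.18 points. Sites also lay closer to each other in the piggyBat libraries: 39.7%, 37.5% and 43.3% had another site of the same library within 10 kb, against 31.0%, 30.8% and 32.5%. The piggyBat libraries had fewer sites to cluster, and their lowest value still exceeded the highest piggyBac value (difference 8.70 points, exact permutation p = 0.1, adjusted p = 0.15). Shorter genes took a larger part of piggyBat sites. Protein-coding genes under 20 kb long held 8.10% to 8.86% of piggyBat sites and 3.84% to 4.39% of piggyBac sites, while genes of 300 kb and over held 6.85% to 7.16% and 9.93% to 10.05%.

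The difference near gene starts was mostly on the transcribed side. Within 5 kb of the start of a protein-coding gene lay 30.4%, 28.1% and 28.96% of piggyBat sites and 20.03%, 21.4% and 20.9% of piggyBac sites. The means of 29.1% ± 1.14 and 20.8% ± 0.69 differed by 8.38 points (exact permutation p = 0.1, adjusted p = 0.15). Within 1 kb of a start the difference was 1.07 points. Starts came from RefSeq for 15812 of 19974 protein-coding genes, with none on chromosome 8, whose sites were left out of these shares. A split by side, chosen after the data were seen, gave 13.7% ± 0.51 against 12.2% ± 0.47 for the 5 kb before the nearest start. For the 5 kb after it, the shares were 16.1%, 14.9% and 15.3% in the piggyBat libraries and 8.38%, 9.04% and 8.34% in the piggyBac libraries. The difference was 1.51 points before the start and 6.87 points after it, each without overlap (exact permutation p = 0.1, adjusted p = 0.117 over 7 such measures).

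**Figure D2:**
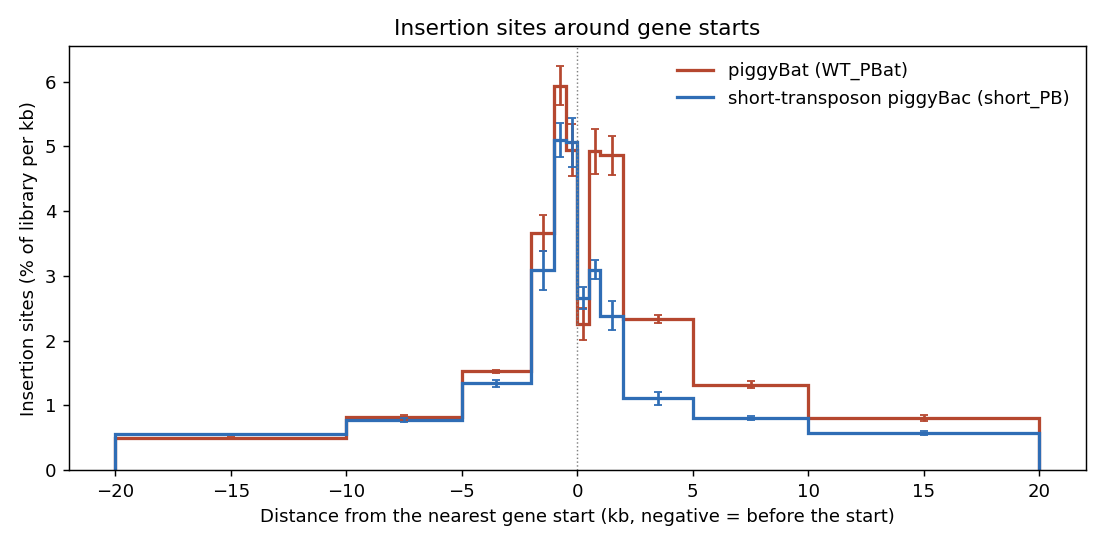
Insertion sites per kb (percent of a library's sites, y axis) against distance from the nearest start of a protein-coding gene (kb, x axis, negative before the start), as group means with SD bars (n = 3). Both groups hold fewer sites in the first 500 bases after the start than in the 500 bases before it, and the rise that follows is larger in piggyBat. From 2 to 5 kb after it piggyBat holds 7.001% of sites and short-transposon piggyBac 3.32%.

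Both groups had fewer sites in the first 500 bases after the start than in the 500 bases before it. The first 500 bases of genes held 1.13% ± 0.12 of piggyBat sites and 1.33% ± 0.09 of piggyBac sites, and the 500 bases before the start held 2.47% ± 0.20 and 2.53% ± 0.19. Per kb, the piggyBat share went from 2.26% ± 0.25 in those first 500 bases to 4.92% ± 0.34 in the next 500. The piggyBac share per kb went from 2.66% ± 0.17 to 3.10% ± 0.15, a smaller rise. In the 500 bases before the start the shares per kb were 4.94% ± 0.40 for piggyBat and 5.06% ± 0.38 for piggyBac. Farther into the gene the groups parted: 4.86% ± 0.30 against 2.39% ± 0.22 lay 1 to 2 kb into the gene, and 7.001% ± 0.18 against 3.32% ± 0.31 lay 2 to 5 kb in. Beyond 50 kb on either side of a start the order was the reverse, with 11.7% ± 0.29 against 17.3% ± 0.27 before a start and 15.8% ± 0.47 against 22.01% ± 0.67 after one.

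The ratio of sites in the 5 kb after to the 5 kb before a start was 1.13, 1.13 and 1.12 in the piggyBat libraries and 0.72, 0.73 and 0.67 in the short-transposon piggyBac libraries. All 24 piggyBac libraries of the series, whatever the transposon or the form of piggyBac, lay between 0.54 and 0.90, so the 3 piggyBat libraries were the only ones with more sites after starts than before them. Over positions listed in no other group the ratios were 1.54, 1.49 and 1.54 for piggyBat and 0.97, 1.06 and 0.88 for short-transposon piggyBac. Both groups had higher ratios under that restriction, and the groups still did not overlap.

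**Figure D3:**
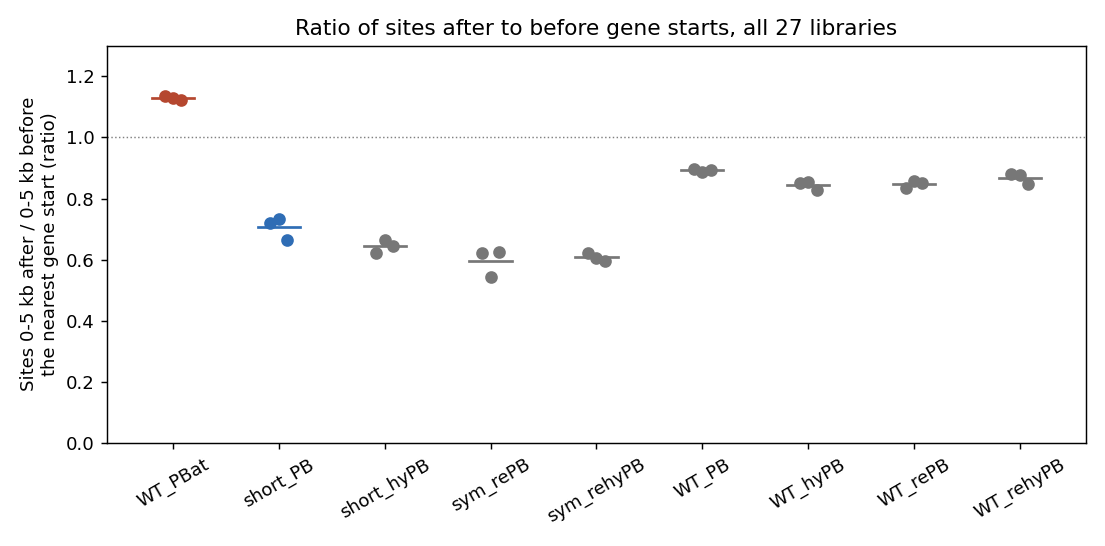
Ratio of insertion sites 0 to 5 kb after to those 0 to 5 kb before the nearest gene start (y axis), as 1 point per library with the group mean as a line, for all 9 groups of the series (x axis). The 3 piggyBat libraries lie at 1.12 to 1.13, above the dotted line at 1. The 24 piggyBac libraries lie from 0.54 to 0.90.

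Orientation differed in the same stretch. Of sites in the 5 kb after a start, 52.7%, 50.8% and 48.9% were in the direction of the gene in the piggyBat libraries, and 46.0%, 39.2% and 41.5% in the piggyBac libraries. The means of 50.8% ± 1.90 and 42.2% ± 3.47 did not overlap (exact permutation p = 0.1, adjusted p = 0.117), and the 24 piggyBac libraries ranged from 32.1% to 46.0%. Before the start the shares were 40.5% ± 0.21 and 41.9% ± 2.50 and overlapped (exact permutation p = 0.6). Over all sites inside 1 protein-coding gene, 40.5% ± 0.69 and 40.8% ± 1.48 were in the direction of the gene (exact permutation p = 0.9). Over positions listed in no other group that difference was -4.32 points, without overlap (exact permutation p = 0.1). At the other end of genes, sites within 5 kb of a start were not counted, so these shares are not like those around starts. With those sites set aside, the last 5 kb held 3.55% ± 0.37 of piggyBat sites and 2.11% ± 0.09 of piggyBac sites, and the 5 kb past the end held 4.24% ± 0.28 and 3.04% ± 0.08. Both were without overlap (exact permutation p = 0.1, adjusted p = 0.117).

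PiggyBat sites were concentrated in the gene-rich part of the genome. The 85 bins of 5 Mb with 60 or more protein-coding genes held 35.5%, 35.5% and 35.9% of piggyBat sites and 25.4%, 24.4% and 25.7% of piggyBac sites. The 295 bins with 10 to 29 genes held 31.4% to 32.0% and 40.02% to 41.8%, and the 79 bins with 0 to 9 genes held 2.58% to 2.74% and 4.398% to 4.58%. Bins of 30 to 59 genes held 29.8% to 30.3% and 28.6% to 29.7%.

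**Figure D4:**
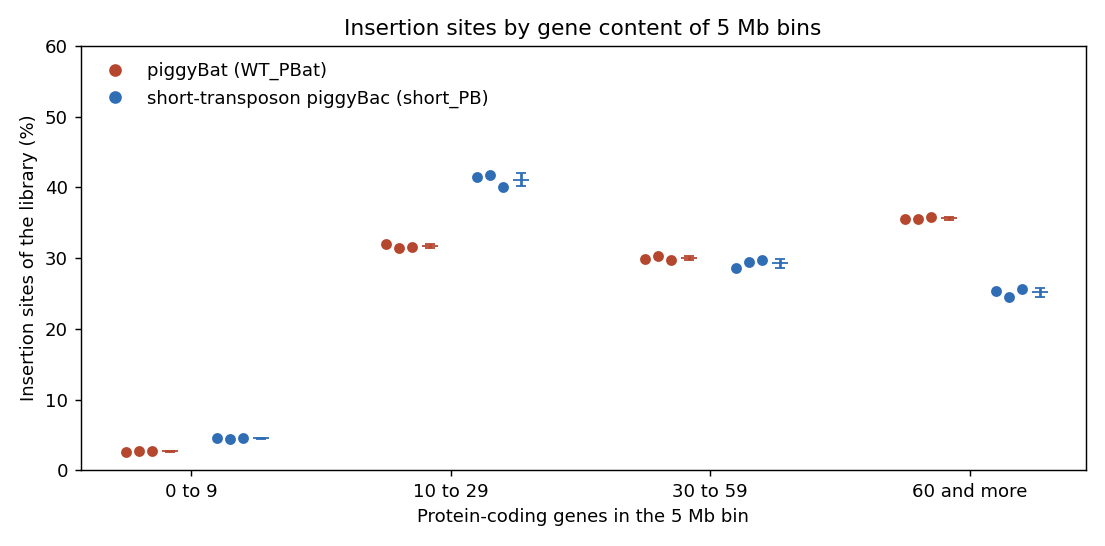
Share of each library's insertion sites (percent, y axis) in 5 Mb bins grouped by their number of protein-coding genes (x axis), as points per library with the mean ± SD (n = 3) to their right. PiggyBat lies above short-transposon piggyBac in bins with 60 or more genes, at 35.5% to 35.9% against 24.4% to 25.7%, and below it in bins with fewer than 30.

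Among whole chromosomes, 16 of 23 had piggyBat and piggyBac libraries that did not overlap in sites per 10000 (69.6%), 8 with more piggyBat sites and 8 with fewer. Chromosome 19, the most gene-dense, held 466, 474 and 469 of every 10000 piggyBat sites and 277, 294 and 283 of every 10000 piggyBac sites, a ratio of 1.65. Chromosomes 22 and 17, also gene-rich, had ratios of 1.39 each, and chromosome 16 had a ratio of 1.27. Chromosome 13 (ratio 0.66), chromosome 4 (0.68) and chromosome 18 (0.71) were lowest, and hold few genes for their length. Chromosome X overlapped between the groups, with 145, 204 and 190 of every 10000 sites against 183, 145 and 147.

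In a limma fit of log2 sites per 10000, 112 of 448 bins of 5 Mb (25.0%) passed an adjusted p of 0.05, 50 (11.2%) higher and 62 (13.8%) lower in piggyBat. Bins higher in piggyBat had a median of 77 protein-coding genes, bins lower had 20, and all tested bins had 29. When each library was scaled to its median over bins instead of its number of sites, the split was 87 higher and 38 lower of 125. With piggyBat replicates 1 and 3 averaged, 85 bins passed, and over positions listed in no other group 7 of 111 passed, all higher in piggyBat.

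The bin with the largest rise was X:45-50 Mb, with 45, 46 and 64 piggyBat sites and 24, 19 and 14 piggyBac sites, a log2 difference of 1.70 ± 0.20 (SE, limma adjusted p = 1.38e-07), which over positions listed in no other group was 0.90 (limma adjusted p = 0.279). Bin 6:30-35 Mb, the major histocompatibility region and its surroundings, with 165 protein-coding genes, had 29, 26 and 32 sites against 13, 9 and 17 (log2 difference 1.43 ± 0.25, limma adjusted p = 4.19e-05). Bin 12:120-125 Mb had 73, 72 and 84 sites against 44, 35 and 43 (1.17 ± 0.13, limma adjusted p = 5.71e-08). The other large rises were in bin 11:55-60 Mb (1.22 ± 0.28) and bin 1:145-150 Mb (1.18 ± 0.23). Among the falls, bin 2:225-230 Mb had 3, 8 and 5 piggyBat sites and 34, 35 and 24 piggyBac sites, a log2 difference of -2.24 ± 0.30 (limma adjusted p = 7.58e-07). Bin 7:120-125 Mb had 2 sites in each piggyBat library and 11, 16 and 11 in the piggyBac libraries (-2.11 ± 0.47). The calls of bins 6:80-85 Mb (-2.82 ± 0.70), 4:155-160 Mb (-2.75 ± 0.73) and 7:10-15 Mb (-2.68 ± 0.88) rested on 4, 4 and 3 piggyBat sites in all, and each was lost without at least 1 piggyBac replicate. Like bin 7:120-125 Mb, these bins entered the test through their piggyBac sites alone.

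Of 19974 protein-coding genes, 5210 held a site in at least 1 piggyBat library, 6020 in at least 1 piggyBac library and 3084 in both. Only 137 had at least 3 sites per library on average, the depth needed to enter the test, and 67 of them (48.9%) passed an adjusted p of 0.05 in limma. More piggyBat sites were found in 55 (40.1%) and fewer in 12 (8.76%), and the median log2 difference over the 137 genes was 0.85. A gene passing this filter through 1 group alone had to differ, so these shares do not describe all genes, and without the filter 123 of 8146 genes passed, with a median difference of 0.27. The median length was 109 kb for genes with more piggyBat sites, 264 kb for genes with fewer and 165 kb for all 137. Scaling to the median over genes lowered each difference by 0.64 and changed the split to 28 higher and 21 lower of 49. The call was kept in every fit that left out 1 library for 38 of the 67 genes, and 54 passed with piggyBat replicates 1 and 3 averaged. Over positions listed in no other group only 3 genes entered the test and none passed, with 1 at an unadjusted p under 0.05. The 3 were TCF7L2 (log2 difference 1.99, limma adjusted p = 0.0752), PCDH7 (-1.34, 0.296) and PALLD (2.07, 0.0555), against 1.94, -0.77 and 0.23 over all positions.

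**Figure D5:**
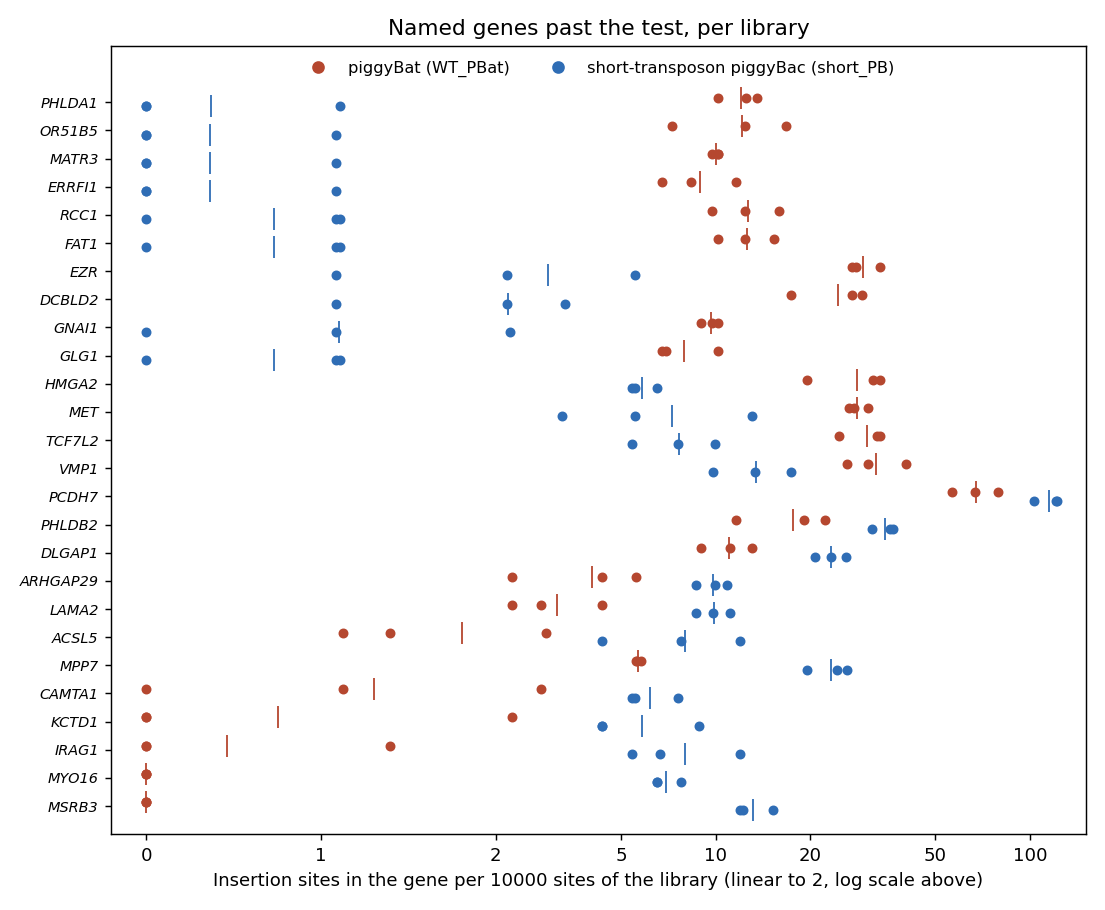
Insertion sites in each named gene per 10000 sites of the library (x axis, linear to 2 and log scale above), as 1 point per library with the group mean as a vertical tick, for the 26 genes that passed the limma test and were named for their site number or the size of their difference, ordered by log2 difference. PHLDA1 at the top has 10.1 to 13.5 in the piggyBat libraries and 0 to 1.11 in the piggyBac libraries, and MSRB3 at the bottom has 0 in all 3 piggyBat libraries.

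EZR, DCBLD2 and MET were among the 10 genes with the most piggyBat sites. EZR on chromosome 6, which encodes ezrin, a linker between membrane and actin in epithelial cells, held 20, 23 and 24 piggyBat sites and 2, 5 and 1 piggyBac sites, a log2 difference of 3.32 ± 0.40 (SE). DCBLD2, which encodes a membrane protein with a discoidin domain, held 21, 12 and 24 against 1, 3 and 2 (3.26 ± 0.39). MET, the receptor for hepatocyte growth factor, held 19, 19 and 27 against 12, 5 and 3 (2.08 ± 0.35, limma adjusted p = 6.97e-05). In all 3 genes the lowest piggyBat library exceeded the highest piggyBac library. EZR and DCBLD2 entered the test through their piggyBat sites alone, so their differences are given as values with no p. Within DCBLD2, 16 of 21, 7 of 12 and 14 of 24 piggyBat sites and 0 of 1, 3 of 3 and 1 of 2 piggyBac sites lay in the first 10 kb. Within MET these were 8 of 19, 5 of 19 and 11 of 27 against 1 of 12, 0 of 5 and 0 of 3, and within EZR 5 of 20, 4 of 23 and 2 of 24 against 1 of 2, 1 of 5 and 0 of 1. The position of sites inside single genes thus varied from gene to gene.

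PHLDA1 and ERRFI1 were among the largest rises. PHLDA1, an early response gene of 6.33 kb, held 9, 7 and 12 piggyBat sites and 0, 1 and 0 piggyBac sites. ERRFI1, which encodes an inhibitor of the epidermal growth factor receptor, held 6, 8 and 6 against 1, 0 and 0. Per 10000 sites the summed ratios were 33.5 for PHLDA1 and 23.9 for ERRFI1, each over 1 piggyBac site in all. The sums treat the linked pair of piggyBat libraries as separate, and the genes were named for their large differences. These ratios are therefore descriptions, and no interval is given for them. Both genes entered the test through their piggyBat sites alone, so their differences are given as values with no p.

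Other large rises fell in MATR3, a nuclear matrix RNA-binding protein (7, 7 and 9 against 1, 0 and 0), RCC1, the nucleotide exchange factor of the Ran GTPase (7, 11 and 11 against 1, 1 and 0), and FAT1, a large cadherin (11, 7 and 11 against 0, 1 and 1). The first 10 kb held 5 of 7, 9 of 11 and 9 of 11 piggyBat sites in RCC1, but 1 of 7, 3 of 7 and 2 of 9 in MATR3 and 6 of 11, 3 of 7 and 4 of 11 in FAT1. The few piggyBac sites there were 1 of 1 and 0 of 1 in RCC1, 0 of 1 in MATR3 and 1 of 1 in each of the 2 libraries with a site in FAT1. GNAI1, a G protein subunit, held 7, 7 and 8 sites against 1, 2 and 0, and GLG1, a Golgi protein, held 5, 7 and 6 against 0, 1 and 1. OR51B5 had 12, 5 and 11 sites against 1, 0 and 0, but its annotated bounds span 165 kb and other genes, so the sites cannot be assigned to this olfactory receptor. These 6 genes also entered the test through their piggyBat sites.

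Sites in HMGA2 and MSRB3, 358 kb apart on chromosome 12, differed in opposite directions. HMGA2 (chr12:65824460-65966291), which encodes a chromatin protein active in tumours, held 14, 23 and 28 piggyBat sites and 6, 5 and 5 piggyBac sites, a log2 difference of 2.14 ± 0.29 (limma adjusted p = 7.62e-06). MSRB3 (chr12:65278683-65466907), a methionine sulfoxide reductase gene, held no site in any piggyBat library and 11, 11 and 14 in the piggyBac libraries. With the absent piggyBat sites of MSRB3 set to a floor of 3 over the group, the ratio of piggyBac to piggyBat sites per 10000 was 10.04. That ratio depends on the chosen floor and is not a lower limit. The HMGA2 call also held with piggyBat replicates 1 and 3 averaged (limma adjusted p = 4.74e-05), and MSRB3 entered the test through its piggyBac sites alone. HMGA2 and MSRB3 were set side by side after their values were seen.

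Neighbouring genes on chromosome 10 did not differ in one direction either. TCF7L2 (chr10:112950247-113167678), the main Wnt-responsive transcription factor of the gut, held 24, 17 and 29 piggyBat sites and 5, 9 and 7 piggyBac sites, a log2 difference of 1.94 ± 0.27 (limma adjusted p = 1.45e-05). VTI1A (chr10:112446988-112855368), a vesicle fusion gene 94.9 kb away, held 21, 20 and 28 against 31, 36 and 36 and did not pass (-0.31 ± 0.19, limma adjusted p = 0.164). With scaling to the median over genes VTI1A was at -0.95 and passed (limma adjusted p = 0.00127). ACSL5 (chr10:112374116-112428376), which encodes an acyl-CoA synthetase and lies 18.6 kb beyond VTI1A, held 1, 2 and 1 against 11, 7 and 4 (log2 difference -1.77 ± 0.55). ACSL5 entered the filtered test through its piggyBac sites alone, so no p of that test is given. The ACSL5 call was lost without the filter on site number (limma adjusted p = 0.0633). Many piggyBat sites in TCF7L2 were near its start: 13 of 24, 13 of 17 and 14 of 29 lay in the first 10 kb, against 2 of 5, 5 of 9 and 3 of 7 piggyBac sites. These neighbours were picked out after their values were seen.

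VMP1, a gene of autophagy, held 29, 18 and 27 piggyBat sites and 9, 12 and 16 piggyBac sites (log2 difference 1.25 ± 0.25, limma adjusted p = 0.000473), and lost its call with scaling to the median over genes (adjusted p = 0.0765). Its piggyBat sites lay at the far end, with 20 of 29, 11 of 18 and 17 of 27 in the last 10 kb, against 1 of 9, 5 of 12 and 3 of 16 piggyBac sites.

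PCDH7, a protocadherin gene of 426 kb on chromosome 4, held the most sites of any gene in both groups. It had 48, 39 and 70 piggyBat sites and 112, 109 and 95 piggyBac sites, which is 66.8, 56.5 and 78.9 per 10000 against 122, 121 and 103. The log2 difference was -0.77 ± 0.15 (limma adjusted p = 0.000389), and the piggyBat libraries lay below the piggyBac libraries throughout. Nearly none of its sites were near an end, with 0 in each piggyBat library and 1, 0 and 0 piggyBac sites in the first 10 kb.

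Further genes held fewer piggyBat sites. MPP7, a cell polarity scaffold gene of 284 kb, held 4, 4 and 5 piggyBat sites and 24, 22 and 18 piggyBac sites (log2 difference -1.91 ± 0.28, limma adjusted p = 2.01e-05). MYO16, a myosin gene of 712 kb, held none in any piggyBat library and 6, 7 and 6 in the piggyBac libraries. With the floor of 3 piggyBat sites its ratio per 10000 was 5.30, which is not a lower limit either. DLGAP1, a synaptic scaffold gene of 959 kb, held 8, 9 and 8 against 19, 21 and 24 (-1.04 ± 0.25, limma adjusted p = 0.00206). The other falls were IRAG1 (1, 0 and 0 against 11, 6 and 5), KCTD1 (0, 0 and 2 against 4, 8 and 4), CAMTA1 (2, 0 and 1 against 7, 5 and 5) and LAMA2 (2, 3 and 2 against 9, 10 and 8). Like MYO16, these genes entered the test through their piggyBac sites alone. PHLDB2 held 16, 8 and 17 sites against 29, 33 and 33 (-0.99 ± 0.24, limma adjusted p = 0.00196). The call of PHLDB2 was lost over heights of at least 10 (limma adjusted p = 0.0730), and those of CAMTA1 and LAMA2 without the filter on site number (0.0503 and 0.0774). ARHGAP29 held 4, 3 and 2 sites against 10, 9 and 8, and lost its call without piggyBat replicate 3 (adjusted p = 0.104) or without piggyBac replicate 1 (0.0692) or 2 (0.0546). Of the remaining genes with the most sites, PALLD, NSMCE2, PPP3CA, PDE4B and MTHFD1L did not pass, with log2 differences from -0.53 to 0.23. With scaling to the median, PPP3CA (-1.17, limma adjusted p = 0.00127) and NSMCE2 (-0.65, 0.0358) passed. PPP3CA also passed without piggyBac replicate 1 (0.0419), with voom (0.0453), with all 5 shallow groups in the fit (0.0344) and with 5 kb added on each side (0.0444).

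Summed sites over gene lists are given per 10000 sites, with a ratio to be read against 1.27, the ratio over all 19974 protein-coding genes. These lists were chosen with earlier results known, and most of their genes had too few sites to be tested. The list of 28 Wnt pathway genes held 48.7, 49.3 and 46.2 piggyBat sites and 15.2, 21.0 and 18.5 piggyBac sites per 10000, a ratio of 2.63. TCF7L2 alone gave 70 of the 110 piggyBat sites of the list and 21 of the 50 piggyBac sites. RNF43, the other tested member, did not pass, with 5, 3 and 3 sites against 4, 3 and 6. The untested ZNRF3, which acts like RNF43 on Wnt receptors, held 2, 5 and 2 sites against 1, 1 and 0.

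The list of 24 AP-1 and early response genes held 44.6, 42.0 and 39.4 piggyBat sites and 4.35, 13.3 and 5.43 piggyBac sites per 10000, a ratio of 5.46. Of its 2 tested members, 2 were called higher in piggyBat, where 40.1% of all tested genes were, and both entered the test through their piggyBat sites. Besides PHLDA1, this was EREG, which encodes epiregulin, a ligand of the epidermal growth factor receptor, with 12, 10 and 11 sites against 0, 5 and 3 (log2 difference 2.70 ± 0.63). EREG and PHLDA1 gave 33 and 28 of the 96 piggyBat sites of the list. Among 22 growth factor receptor and RAS-PI3K genes the sums were 36.2, 52.2 and 45.1 against 25.01, 11.1 and 15.2 per 10000 (ratio 2.60), and MET, the only tested member, gave 65 of the 102 piggyBat sites.

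No ribosomal protein gene or histone gene had enough sites to be tested singly. The 80 ribosomal protein genes held 55.7, 40.6 and 40.6 piggyBat sites and 8.70, 5.54 and 9.77 piggyBac sites per 10000, a ratio of 5.70, and 34 of them held at least 1 piggyBat site against 12 with a piggyBac site. RPS29, with the most sites, had overlapping libraries (3, 2 and 5 against 3, 0 and 3). Further examples were RPL13 (4, 2 and 3 against 2, 1 and 0) and RPS3 (2, 4 and 2 against 0, 0 and 1). The 76 histone genes held 36.2, 26.1 and 32.7 against 5.44, 5.54 and 8.68 per 10000, a ratio of 4.83, with 18 genes hit by piggyBat and 11 by piggyBac. H2BC5 held 6, 4 and 6 piggyBat sites and no piggyBac site, and H3C4 held 6, 4 and 5 against 1, 0 and 1. H4C15 had overlapping libraries (1, 2 and 2 against 0, 1 and 2). Genes of these lists can overlap, and a site in overlapping members was counted for each. No list test was run, so these ratios are descriptions.

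The remaining lists varied. The 20 gut epithelial transcription factor genes held 6.96, 8.69 and 12.4 piggyBat sites against 7.61, 11.1 and 8.68 per 10000, and the 22 epithelial keratin and adhesion genes held 6.96, 4.35 and 5.64 against 4.35, 2.22 and 4.34, each with overlapping libraries. The 20 immune cell markers and the 20 liver, muscle and neuron markers held 4 and 7 piggyBat sites and 5 and 14 piggyBac sites in all. For the 510 zinc finger genes, many of them on chromosome 19, the sums were 51.5, 52.2 and 53.0 against 51.1, 47.6 and 42.3 per 10000, a ratio of 1.11, below the ratio over all genes. That difference turned to -0.09 per 10000 over peaks with a height of at least 10 and to -0.36 with thinned heights. For the 22 BET and elongation genes the ratio was 1.93 (19.5, 14.5 and 14.7 against 6.52, 7.75 and 10.9, without overlap). MED13L, the only tested member, held 7, 4 and 4 sites against 1, 3 and 3 (log2 difference 1.28 ± 0.54). MED13L did not pass in the main fit and was called under some alternatives. It entered the test through its piggyBat sites, so no p is given.

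Lists of very long genes ran below the ratio over all genes. The 30 long neuronal genes held 4.18, 11.6 and 9.02 piggyBat sites and 11.96, 13.3 and 19.5 piggyBac sites per 10000, a ratio of 0.55. The 15 common fragile site genes held 12.5, 11.6 and 11.3 against 27.2, 12.2 and 30.4, a ratio of 0.51, and the libraries overlapped. LRP1B, a very long receptor gene that is in both lists, did not pass (3, 5 and 4 against 3, 0 and 5). It entered the test through its piggyBat sites, so no p is given. In the list of 392 olfactory receptor genes, OR51B5 gave 28 of the 36 piggyBat sites and 1 of the 8 piggyBac sites.

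Peak heights were the same at the median and differed at the top. The median height was 7 in each of the 6 libraries. The tallest 1% of sites held 5.78%, 5.69% and 5.66% of all height in the piggyBat libraries and 4.47%, 4.65% and 4.48% in the piggyBac libraries (difference 1.18 points, exact permutation p = 0.1, adjusted p = 0.15). Heights of 20 and over were reached by 8.93%, 7.16% and 7.95% of piggyBat sites and by 4.26%, 5.22% and 3.64% of piggyBac sites. Height comes from amplified reads without molecular identifiers, so it does not count cells or molecules. The share of piggyBat sites within 5 kb of a start was larger at greater heights, from 26.1% ± 1.86 at heights of 5 to 6 to 40.7% ± 3.92 at 20 and over, and the piggyBac share went from 19.2% ± 0.83 to 26.4% ± 1.33. The share inside protein-coding genes went from 63.5% ± 0.47 to 58.7% ± 0.93 for piggyBat and from 49.9% ± 0.65 to 47.1% ± 1.57 for piggyBac.

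Some positions recurred in every library of a group. There were 508 positions listed in all 3 piggyBat libraries, of which 153 were also in at least 1 short-transposon piggyBac library, and 256 in all 3 piggyBac libraries, of which 88 were also in at least 1 piggyBat library. The linked pair of replicates 1 and 3 adds to the piggyBat number. The tallest recurrent piggyBat position was chr1:16905443-16905446, outside protein-coding genes and 8642 bases from an end of CROCC, which encodes a protein of the ciliary rootlet, with heights of 246, 225 and 246, and with a height of 15 in piggyBac replicate 3. Next came chr15:65304852-65304855, 17969 bases from PARP16, with heights of 145, 66 and 117, and chr1:28577735-28577738 inside TRNAU1AP, a gene of selenocysteine incorporation, with heights of 85, 69 and 95. Both were absent from the lists of the short-transposon piggyBac libraries.

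The tallest recurrent piggyBac position was chr22:37777117-37777120, 561 bases from an end of TRIOBP, an actin-binding protein gene, with heights of 81, 72 and 83 and no piggyBat peak. One position stood high in both groups: chr10:13302598-13302601, 2534 bases from an end of PHYH, a gene of peroxisomal fatty acid oxidation, had heights of 44, 61 and 38 in the piggyBac libraries and 31, 61 and 52 in the piggyBat libraries. Positions listed on both strands were 0.975%, 1.06% and 1.14% of piggyBat sites and 1.11%, 0.886% and 1.07% of piggyBac sites, and overlapped between the groups (exact permutation p = 0.7).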

How the data were processed

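The authors deposited 1 peak list per library. Per the submitters' processing notes, reads were trimmed with cutadapt 3.4 and aligned with HISAT2 2.2.1.0, and the builds named are hg38 and GRCh38.p5. The peak caller and the handling of duplicates are not given in the sources used here. The deposited coverage values (signal, not scaled to depth as far as the values show) are the summed and the highest coverage of a peak, the highest called height here. A constant per file, another deposited value, was taken as the total of reads. A site is the first base of the 4-base target at the 5′ edge of a peak, counted once per library on chromosomes 1 to 22 and X. Genes came from RefSeq (GRCh38.p14).

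Groups follow the sample labels. Single measures were compared with two-sided exact permutation tests over libraries, with Benjamini-Hochberg adjustment. Sites per gene (mean of at least 3) and per 5 Mb bin (mean of at least 5), plus 0.5, per 10000 sites of the library were tested on the log2 scale with limma 3.58.1 in R 4.3.3 (trend). These are site numbers made here from peak lists, so no count model was used, and log2 differences depend on the 0.5 added. On data simulated from the mean site numbers of these libraries, 3-fold changes were called for 77.4% of 146 changed bins (of 444 bins tested) and 53.3% of 45 changed genes (of 166 genes tested), and 2-fold changes for 30.1% of 146 bins (of 435) and 17.8% of 45 genes (of 172), with 8.33% and 11.1% of the 2-fold calls false. The simulated libraries were independent, with a fixed spread not estimated from the data. PiggyBat replicates 1 and 3 were not linked in them, so these rates may not hold for the real libraries. Replicates are samples labelled as such, so p-values measure the spread between these samples, which may be technical. Named genes were the 10 with the most sites per group, the 10 largest called differences in each direction without overlap, and list examples. Members and lists were chosen with earlier results of these data known. Alternatives left out each library, averaged piggyBat replicates 1 and 3, raised the minimum height from 5 to 10, thinned heights to the smallest file total, and changed scaling, prior, filter, model, windows and the groups in the fit. The restriction to positions listed in no other group and the split by side of the start were added after the data were seen. Some results are not reported here.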

Additional observations from a re-analysis of the deposited data

How the results depend on the processing

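With 3 libraries against 3, differences in the share of sites in genes, near gene ends, near starts and in clusters kept their direction under all alternatives run, but not their size. The start share difference fell from 8.38 to 1.07 points and the gene-end share difference from 9.18 to 5.11 points at a distance of 1 kb, and the clustered share difference ranged from 5.97 points at 1 kb to 12.8 with thinned heights. Of 136 alternative values of the 12 measures, 125 kept their direction and 11 turned. The log2 difference in site number turned from -0.27 to 0.056 over heights of at least 10, to 0.18 with thinned heights and to 0.21 over positions listed in no other group. Sites per 1000000 of the file total ranged from -1521 to 1831.5 with 1 library left out, the lowest without piggyBac replicate 3, and were 3322, 5360 and 3610 over heights of at least 10, with thinned heights and over positions listed in no other group. The difference in positions on both strands turned to -0.056 over heights of at least 10, and ranged from -0.0351 to 0.0764 with 1 library left out. The difference in sense share turned to 2.80 over heights of at least 10, to 0.25 with thinned heights, was -4.32 over positions listed in no other group, and ranged from -0.85 to 0.54 with 1 library left out. The 63 alternative values of the measures by side of the start, chosen after the data were seen, kept their direction.

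The number of called bins moved from 112 to 27 of 167 over heights of at least 10, to 64 with all 5 shallow groups in the fit, and to 7 of 111 over positions listed in no other group. It ranged from 77 to 115 with 1 library left out, the lowest without piggyBac replicate 2. Called genes moved from 67 to 17 of 28 over heights of at least 10, to 0 of 3 over positions listed in no other group, and to 123 of 8146 without the filter, and ranged from 48 to 74 with 1 library left out. Fewer bins or genes had enough sites in the smaller sets. Higher and lower calls were 87 and 38 (bins) and 28 and 21 (genes) with scaling to the median, against 50 and 62 and 55 and 12.

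Among named genes that did not pass, the log2 difference of PALLD turned to -0.41, MTHFD1L to -0.54 and RNF43 to -0.57 with scaling to the median. MTHFD1L also turned to -0.086 with thinned heights, NSMCE2 to 0.026 with piggyBat replicates 1 and 3 averaged and to 0.0044 with a prior of 2 sites, and RNF43 to -0.020 with 5 kb added on each side. With 1 library left out, the differences ranged from -0.21 to 0.088 for NSMCE2, from -0.53 to 0.096 for PDE4B, from -0.093 to 0.31 for MTHFD1L and from -0.19 to 0.30 for RNF43. The zinc finger list turned to -0.087 over heights of at least 10 and to -0.36 with thinned heights. The cause of these turns was not tested.

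The labels number replicates 1 to 3 in both groups without saying that a number marks a shared batch. Same-numbered libraries did not deviate together (correlations over bins -0.006, 0.06 and 0.05, over genes -0.009, -0.19 and 0.02). With the replicate number as a block, 114 bins and 67 genes were called, and the permutation tests could not go below p = 0.25. Differences under the block were the same by construction. Depth limits the gene results, since 137 of 19974 genes could be tested.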
